A study of Mus musculus with 6 samples.

Results

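Genes known as oestrogen targets in breast cancer cells or in the uterus were followed in mouse ovarian tumours grown with or without estradiol. The list of 33 genes was assembled from earlier knowledge of these tissues, and 32 of them were measured here, out of 19937 genes in all. A gene was taken where a probe set of the array was annotated to that gene alone, and each of the 32 had 1 such probe set. C3, the complement gene known as an oestrogen target of the mouse uterus, was not analysed here.

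Estradiol enters the cell and binds oestrogen receptor alpha or beta, which then acts at DNA elements or through other bound factors, mostly far from promoters, to change transcription. In breast cancer cells this raises a well-known set of genes, among them the secreted peptide gene TFF1, the growth regulator gene GREB1 and the progesterone receptor gene. In the mouse uterus, lactoferrin and complement C3 are classic targets. Which genes respond depends on the cofactors and the accessible chromatin of a tissue, so targets learned in breast or uterus need not respond in the ovary.

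The 6 tumours came from MASE2 cells injected into SCID mice, which lack mature T and B cells. MASE2 cells are ascites cells of the tgCAG-LS-TAg mouse model of ovarian cancer, in which adenoviral Cre delivered into the ovarian bursa switched on SV40 large and small T antigens in ovarian surface epithelium. The donor mouse had itself received E2, and both groups carried the same T antigens. In 3 mice a placebo pellet and in 3 an estradiol (E2) pellet was implanted when the cells were injected, and tumours were collected once the mice had lost wellness. The labels used here give no pellet dose, no mouse age and no day of collection, and do not say whether the cells are a single clone. RNA from each tumour was put on 1 whole-transcript array, and the values are RMA log2 intensities, so a difference of 1 is a 2-fold difference. With so few arrays, their number limits precision. These are bulk tumours, in which fewer cells of a type and less RNA per cell cannot be told apart.

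Placebo replicate 3 was unlike the other tumours. Its Pearson r with them, across genes, which are not independent replicates, was 0.857 to 0.865, against 0.96 to 0.994 among the other arrays. All 10 enterocyte markers and all 9 measured goblet and Paneth cell markers were highest in it, with mean log2 values of 10.62 and 11.03, against 4.31 to 4.54 and 4.37 to 5.05 on the other arrays. Markers also differed between the groups. The mean of 7 gonadal somatic markers was 5.26 to 5.37 with placebo and 6.59 to 6.72 with E2, with 3 of them (Gata4, Nr5a1 and Inha) called higher. Amhr2 was 1.74 log2 units higher without passing (limma adjusted p = 0.0704). Lhx9, Foxl2 and Fshr differed by -0.31, -0.014 and -0.011 log2, and Fshr was under the lower quartile on all 6 arrays. The mean of 10 ovarian surface and general epithelial markers was 7.73 to 8.40 with placebo and 6.36 to 6.66 with E2, and each of the 10 exceeded the array's lower quartile in at least 1 tumour. Of these markers Krt7 was called lower, and 5 were without placebo replicate 3. Placebo replicate 3 was highest for 5 of the 10, among them Krt8, Epcam and Cdh1 (11.42, 10.14 and 9.56). It was lowest for Wt1 (6.37), and below placebo replicates 1 and 2 for Upk3b, Upk1b and Msln (6.51, 6.80 and 5.96). The mean of 6 adipocyte markers was 4.93 to 5.33 with placebo and 4.37 to 4.51 with E2, with 1 (Adipoq) called lower, and 5 without placebo replicate 3. The mean of 10 macrophage markers was 7.86 and 7.85 in placebo replicates 1 and 2, 6.75 in placebo replicate 3 and 6.29 to 6.75 with E2. The part of these differences in the results that follow was not tested. Values without placebo replicate 3 are given beside those on 6 arrays. Among all genes, 1.06% were called higher and 0.326% lower on 6 arrays. Without placebo replicate 3 these shares were 6.4% and 5.21%.

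**Figure D1:**
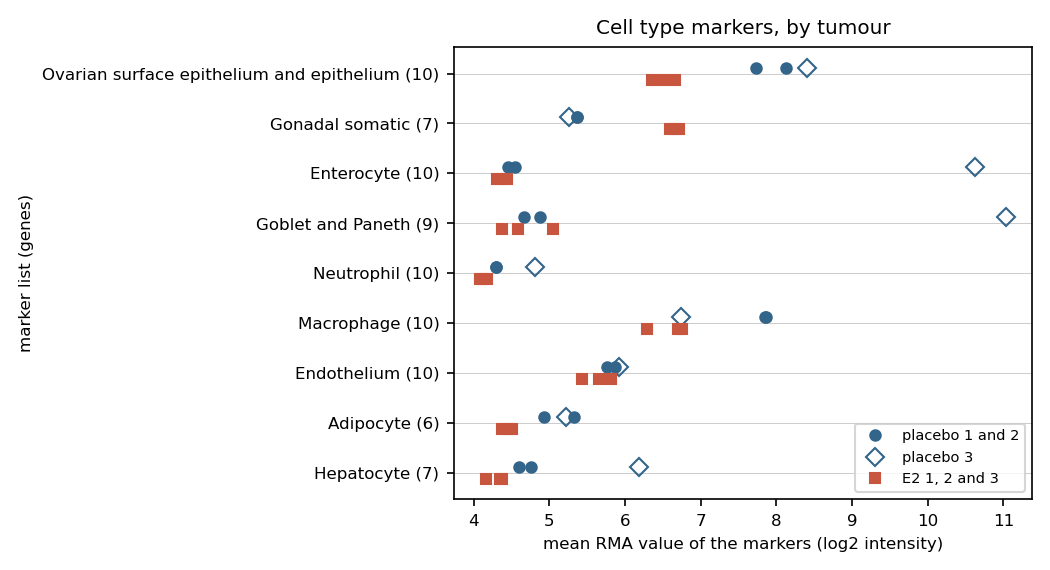
Mean RMA log2 intensity (horizontal axis) of the marker genes of each cell type (rows, with the number of genes measured) in each tumour. Filled circles are placebo replicates 1 and 2, the open diamond is placebo replicate 3 and squares are the 3 E2 tumours. The enterocyte and the goblet and Paneth lists lie at 10.62 and 11.03 in placebo replicate 3 and below 5.1 elsewhere, and the gonadal list is higher in every E2 tumour than in every placebo tumour.

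Of the 32 measured targets, 2 rose with E2 and 0 fell at a limma adjusted p under 0.05, where p was adjusted over all genes. They were Stc2 and Tiparp. Neither passed when any 1 of the E2 tumours was left out, and Tiparp alone passed without placebo replicate 1. Among all 19937 genes, 1.06% were called higher and 0.326% lower at the same threshold, against 6.25% of the targets called higher. At an unadjusted limma p under 0.05, 8 targets (25%, against 10.4% of all genes) were higher and 1, Nr2f1 (3.13%, against 6.16% of all genes), was lower. The median change of the targets was 0.056 log2, and that of all genes was -0.0087 log2. Every E2 tumour lay above every placebo tumour for 9 of the 32 targets (28.1%, against 14.9% of all genes) and below for 3 (9.38%, against 11.4% of all genes). The targets were chosen with earlier results of these data known, so these shares are a description.

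Without placebo replicate 3, 8 targets rose (25%, against 6.4% of all genes) and 1 fell (3.13%, against 5.21% of all genes). Rasd1, Elovl5, Kcnk5, Rab31, Slc7a5 and Tpbg joined Stc2 and Tiparp among those that rose, and Ctsd fell. The median SD of the 32 targets was 0.300 log2 among the 3 placebo tumours, 0.0963 between placebo replicates 1 and 2, and 0.0978 among the 3 E2 tumours. Placebo replicate 3 held the highest of the 6 values for 12 of the 32 targets and the lowest for 11. Among all 19937 genes it held the highest for 5565 and the lowest for 6571.

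For comparison, the reference targets Greb1 and Pgr, chosen with earlier results of these data known, were both called higher with E2. Greb1, the gene in the series title and a co-factor of the oestrogen receptor, was 10.7-fold higher with E2 (limma adjusted p = 0.00131) and Pgr, the progesterone receptor gene, 6.24-fold higher (limma adjusted p = 0.0376). Greb1 passed without any 1 array, and Pgr did not pass without placebo replicate 1 or without any 1 of the E2 tumours (limma adjusted p = 0.0805 to 0.199). With the replicate number as a block, neither Greb1 nor Pgr passed (limma adjusted p = 0.0514 and 0.176). The gene of the receptor itself, Esr1, measured 8.92, 9.06 and 6.35 with placebo and 9.36, 9.29 and 9.17 with E2 on the log2 scale. Its 3 E2 tumours lay close together and placebo replicate 3 far below, and the difference did not pass (limma adjusted p = 0.475, or 0.125 without that array). Esr2 lay between 4.36 and 4.52 in all 6 tumours (limma adjusted p = 0.953).

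**Figure D2:**
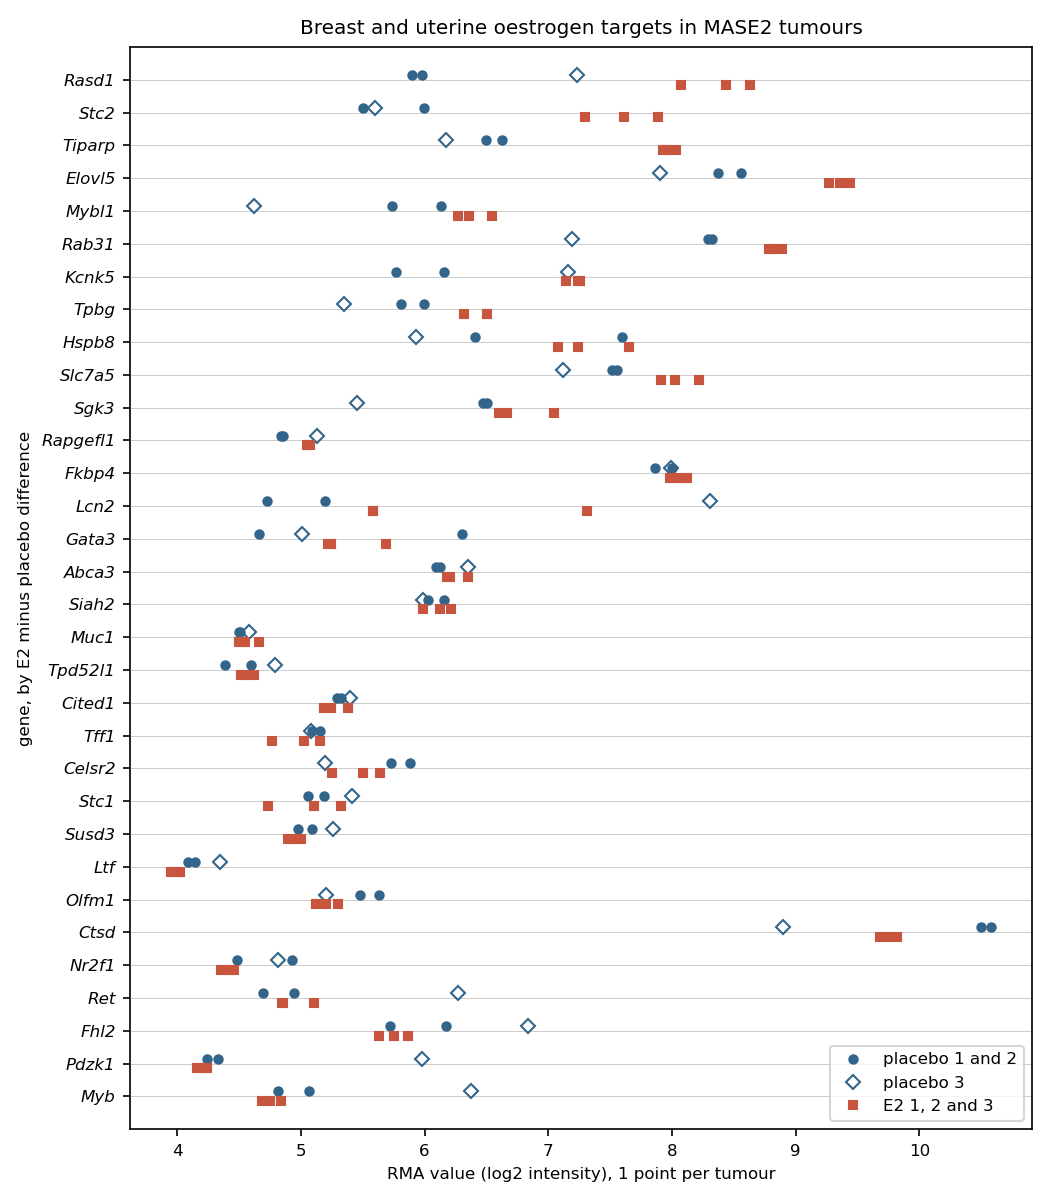
RMA log2 intensity (horizontal axis) of each measured target (rows, ordered by the difference between group means) in each of the 6 tumours, 1 point per tumour. Blue marks are placebo tumours, with replicate 3 as an open diamond, and red squares are E2 tumours. Stc2 and Tiparp are the rows that passed the test on 6 arrays, and the open diamond lies far from the filled circles for Lcn2, Pdzk1, Ctsd, Myb and Ret.

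The promoters of some targets are shown because the targets are known through the oestrogen receptor, whose palindromic element reads GGTCANNNTGACC, with GGTCA as its half-site. The windows span the 250 bases before the annotated start in the RefSeq promoter table of build GRCm38.p6, which held 32 windows of 25 of the 33 listed genes. Both strands were searched, and a palindrome would also count as half-sites. No window of a listed target held the full palindrome, which 0.0639% of all 32851 windows held. A half-site stood in 14 of the 32 windows (43.8%, against 35.2% of all windows), in 13 genes. The longer form AGGTCA stood in 7 of the 32 (21.9%, against 14.0% of all windows).

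Windows are printed for Stc2 and Tiparp, which passed the test on 6 arrays, and for Ctsd and Rab31, the genes with a half-site among the 7 genes with a window that were called without placebo replicate 3. Capitals mark GGTCA or its reverse complement. The Stc2 window lies at chr11:31370062-31370311 on the minus strand, that of Tiparp at chr3:65528197-65528446 on the plus strand, that of Ctsd at chr7:142387828-142388077 on the minus strand and that of Rab31 at chr17:65772753-65773002 on the minus strand.
Stc2: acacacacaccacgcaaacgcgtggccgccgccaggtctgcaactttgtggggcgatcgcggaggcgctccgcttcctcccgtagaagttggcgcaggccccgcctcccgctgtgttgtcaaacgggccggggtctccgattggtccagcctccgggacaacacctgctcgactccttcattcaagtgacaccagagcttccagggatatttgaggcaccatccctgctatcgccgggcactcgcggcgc
Tiparp: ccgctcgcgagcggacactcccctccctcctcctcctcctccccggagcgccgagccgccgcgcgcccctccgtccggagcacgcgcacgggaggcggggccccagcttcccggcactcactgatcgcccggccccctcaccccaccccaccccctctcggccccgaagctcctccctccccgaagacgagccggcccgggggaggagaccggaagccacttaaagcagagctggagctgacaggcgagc
Ctsd: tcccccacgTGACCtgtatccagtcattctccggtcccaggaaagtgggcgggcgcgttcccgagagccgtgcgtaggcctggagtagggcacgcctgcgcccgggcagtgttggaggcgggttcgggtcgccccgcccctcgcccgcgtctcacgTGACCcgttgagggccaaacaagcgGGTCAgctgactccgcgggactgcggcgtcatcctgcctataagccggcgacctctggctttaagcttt
Rab31: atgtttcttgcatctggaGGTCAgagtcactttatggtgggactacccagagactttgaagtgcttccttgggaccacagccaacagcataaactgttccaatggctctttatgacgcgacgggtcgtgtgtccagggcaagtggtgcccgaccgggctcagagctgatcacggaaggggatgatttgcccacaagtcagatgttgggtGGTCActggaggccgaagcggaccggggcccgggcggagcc
The Stc2 and Tiparp windows held 0 half-sites, the Ctsd window 3 and the Rab31 window 2. In Ctsd the half-site nearest the start ended 65 bases before it, and in Rab31 37 bases before it. A match or its absence describes these letters in these windows and is not evidence of binding.

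Among the secreted and lumenal proteins, 1 of 5 targets rose (20%, against 1.06% of all genes), and it was Stc2. It encodes stanniocalcin 2, a secreted glycoprotein. Stc2 measured 5.50, 5.998 and 5.59 in the placebo tumours and 7.89, 7.29 and 7.61 in the E2 tumours. The groups did not overlap, and placebo replicate 3 lay between the other placebo tumours. Stc2 rose by 1.9 on the log2 scale (SE 0.20, limma adjusted p = 0.0165), a 3.73-fold difference, and by 1.85 without placebo replicate 3 (limma adjusted p = 0.00128). An exact two-sided permutation test of Stc2 gave p = 0.10, the smallest that 3 against 3 allows, and so it did for each gene whose groups did not overlap.

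Its paralog Stc1, which encodes stanniocalcin 1, did not pass. Stc1 measured 5.06, 5.18 and 5.41 with placebo and 5.32, 5.11 and 4.73 with E2, so the groups overlapped. The difference was -0.16 log2 (95% confidence interval -0.60 to 0.27, limma adjusted p = 0.668), and -0.067 without placebo replicate 3. The log2 intensity of Stc2 minus that of Stc1 within an array was 0.44, 0.81 and 0.19 with placebo and 2.57, 2.19 and 2.88 with E2. These values did not overlap between the groups and differed by 2.06 log2 (exact permutation p = 0.10), and by 1.92 without placebo replicate 3. They reuse the Stc2 values above, so they are not separate support, and probe set intensities do not give a ratio of transcripts.

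Tff1, the trefoil peptide gene that serves as the textbook read-out of oestrogen in breast cancer cells, did not pass. It measured 5.15, 5.09 and 5.08 with placebo and 5.02, 4.76 and 5.15 with E2. These values lay near the array medians (4.84 to 4.97). They were also near those of Tff3 outside placebo replicate 3 (4.90 to 5.23, against 10.86 in it). Tff1 was therefore not shown to be above background in either group. The difference of -0.13 log2 had a 95% confidence interval of -0.42 to 0.16, which lies below a 2-fold rise (limma adjusted p = 0.611). Without placebo replicate 3 it was -0.14 (interval -0.43 to 0.15). The E2 values spread more widely than the placebo values, and E2 replicates 1 and 2 lay below all 3 placebo tumours.

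Ctsd, the lysosomal aspartic protease cathepsin D, showed another pattern. It measured 10.58, 10.50 and 8.90 with placebo and 9.74, 9.68 and 9.82 with E2. The E2 tumours lay between placebo replicate 3, the lowest, and the other placebo tumours. On 6 arrays the difference was -0.24 log2 (limma adjusted p = 0.813). Without placebo replicate 3, Ctsd fell by 0.79 on the log2 scale (interval -1.01 to -0.57, limma adjusted p = 0.00188), a 1.73-fold difference. The mean of the macrophage markers was likewise lower in placebo replicate 3 and the E2 tumours than in placebo replicates 1 and 2. Without placebo replicate 3, 8 of the 10 markers fell, against 5.21% of all genes. The part of macrophages in the Ctsd values was not tested. Olfm1, an olfactomedin-domain glycoprotein gene, was 0.23 log2 units lower (limma adjusted p = 0.433, or 0.0689 without placebo replicate 3).

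Of the uterine and defence secretions, 0 of 3 measured targets passed in limma, and 0 had an unadjusted p under 0.05. Ltf, the lactoferrin gene and a classic target of the mouse uterus, measured 4.08, 4.14 and 4.34 with placebo and 3.999, 4.02 and 3.95 with E2. Each of the 6 Ltf values was under its array's lower quartile over genes (4.22 to 4.39), so Ltf was not shown to be above background in either group. No direction is read from it, although it is 1 of the 3 targets counted above as lower in every E2 tumour (limma adjusted p = 0.371, or 0.455 without placebo replicate 3). Muc1, a membrane mucin gene of glandular epithelia, lay between 4.50 and 4.66 in all 6 tumours, with a difference of 0.045 log2 (95% confidence interval -0.16 to 0.25, limma adjusted p = 0.814), and 0.070 without placebo replicate 3. The Muc1 values lay under the array medians (4.84 to 4.97), so Muc1 was not shown to be above background either.

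Lcn2, which encodes the iron-scavenging lipocalin of mucosal defence, had the largest placebo SD of the targets, 1.95 log2. It measured 4.72, 5.20 and 8.31 with placebo and 5.59, 5.58 and 7.31 with E2. Placebo replicate 3 and E2 replicate 3 stood above the other tumours. The difference was 0.082 log2 on 6 arrays and 1.2 without placebo replicate 3 (limma adjusted p = 0.976 and 0.168). The intestinal defence genes Reg3g and Reg3b, named here after their values were seen, were also highest in placebo replicate 3 (12.10 and 12.15) and next in E2 replicate 3 (6.05 and 5.84), with 3.56 to 5.22 and 3.82 to 4.89 in the other tumours. Both are on the goblet and Paneth list. Of its other markers, Muc2, Zg16, Clca1 and Spink4 were next highest in E2 replicate 3 (4.54 to 4.77), and Tff3, Lyz1 and Defa24 were not. The enterocyte mean in E2 replicate 3 was 4.44. Neutrophil markers had a mean of 4.82 in placebo replicate 3, 4.29 and 4.30 in the other placebo tumours and 4.09 in E2 replicate 3. Of these 10 markers 6 were highest in placebo replicate 3, among them Ly6g, at 5.41 there and 3.40 to 3.86 elsewhere. The part of neutrophils in the Lcn2 values was not tested.

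Among the 8 regulators of transcription and chromatin, Tiparp rose (12.5%, against 1.06% of all genes) and 7 did not pass. Tiparp encodes a mono-ADP-ribosyltransferase known as a target and repressor of the aryl hydrocarbon receptor. It measured 6.62, 6.49 and 6.17 with placebo and 7.95, 7.93 and 8.04 with E2. The E2 tumours lay within 0.11 log2 of each other and well above all placebo tumours. Tiparp rose by 1.54 on the log2 scale (SE 0.13, limma adjusted p = 0.00817), a 2.91-fold difference, and by 1.41 without placebo replicate 3 (limma adjusted p = 0.000201).

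The MYB family members had differences of opposite sign, and neither passed. Myb, the proto-oncogene of progenitor cells, measured 4.81, 5.06 and 6.37 with placebo and 4.75, 4.84 and 4.68 with E2. Mybl1, its paralog, measured 5.73, 6.13 and 4.62 with placebo and 6.27, 6.36 and 6.55 with E2. In both genes placebo replicate 3 lay far from the other placebo tumours, above them for Myb and below them for Mybl1. The differences were -0.66 log2 for Myb (limma adjusted p = 0.466) and 0.90 for Mybl1 (limma adjusted p = 0.316). Without that array they were -0.18 and 0.46 (limma adjusted p = 0.357 and 0.0807).

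Gata3, a transcription factor of luminal mammary cells, measured 4.66, 6.30 and 5.01 with placebo and 5.69, 5.25 and 5.22 with E2. Here placebo replicate 2 was the high tumour, the groups overlapped and the difference was 0.063 log2 (95% confidence interval -0.99 to 1.11, limma adjusted p = 0.956), and -0.095 without placebo replicate 3. Nr2f1, the orphan receptor COUP-TFI, was lower in every E2 tumour (4.35, 4.42 and 4.46) than in every placebo tumour (4.48, 4.93 and 4.81), but the difference of -0.33 log2 missed the threshold (limma adjusted p = 0.296), as did that of -0.29 without placebo replicate 3 (limma adjusted p = 0.236). The Nr2f1 values lay near or under the array medians (4.84 to 4.97), and Nr2f1 was not shown to be above background. Fhl2, a LIM-only co-regulator, was 0.49 log2 units lower with E2 (limma adjusted p = 0.436) and 0.20 lower without placebo replicate 3, where it was highest. Siah2, a ubiquitin ligase gene, and Cited1, a transcriptional co-activator, differed by 0.055 and -0.068 log2, with 95% confidence intervals of -0.18 to 0.29 and -0.29 to 0.15, and by 0.020 and -0.039 without placebo replicate 3.

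Of the 8 signalling genes and receptors, 0 passed in limma on 6 arrays. At an unadjusted limma p under 0.05, 3 were higher (37.5%, against 10.4% of all genes). Without placebo replicate 3, 3 rose, Rasd1, Rab31 and Tpbg (37.5%, against 6.4% of all genes). Rasd1, a Ras-related GTPase first known as a dexamethasone-induced gene, had the largest difference of the 32 targets. It measured 5.98, 5.90 and 7.23 with placebo and 8.44, 8.07 and 8.63 with E2. The groups did not overlap, and placebo replicate 3 was the highest placebo tumour. The difference was 2.01 log2 on 6 arrays (SE 0.38, limma adjusted p = 0.0745), and without placebo replicate 3 Rasd1 rose by 2.44 (limma adjusted p = 0.000175), a 5.43-fold difference.

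Rab31, a GTPase of vesicle traffic, measured 8.32, 8.29 and 7.19 with placebo and 8.89, 8.79 and 8.81 with E2. Here placebo replicate 3 was the lowest tumour, and the difference was 0.89 log2 (limma adjusted p = 0.241). Without it Rab31 rose by 0.52 on the log2 scale (limma adjusted p = 0.00935). Tpbg, the trophoblast glycoprotein gene, measured 5.99, 5.81 and 5.34 with placebo and 6.31, 6.50 and 6.50 with E2. Its groups did not overlap, with a difference of 0.72 log2 (limma adjusted p = 0.133), and without placebo replicate 3 it rose by 0.54 (limma adjusted p = 0.0179).

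Sgk3, a kinase that acts downstream of phosphoinositide 3-kinase, was also higher in every E2 tumour (6.66, 6.60 and 7.04) than in every placebo tumour (6.48, 6.51 and 5.46). Its difference of 0.62 log2 missed the threshold (limma adjusted p = 0.382), and it was 0.28 without placebo replicate 3 (limma adjusted p = 0.275). Ret, the receptor tyrosine kinase for ligands of the GDNF family, measured 4.69, 4.94 and 6.27 with placebo and 5.11, 4.85 and 4.85 with E2. Outside placebo replicate 3 the Ret tumours overlapped, and the difference went from -0.37 log2 (limma adjusted p = 0.674) to 0.12 without it. Rapgefl1, a guanine nucleotide exchange factor homologue, Celsr2, a cadherin of planar cell polarity, and Susd3, a sushi-domain membrane protein, differed by 0.13, -0.14 and -0.17 log2. The upper ends of their 95% confidence intervals, 0.38, 0.36 and 0.078 log2, lay below a 2-fold rise. The differences without placebo replicate 3 were 0.22, -0.34 and -0.092 log2, and none passed (limma adjusted p = 0.154, 0.149 and 0.619).

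Of the 5 genes of channels, transport, lipids and scaffolds, 0 passed in limma on 6 arrays. At an unadjusted limma p under 0.05, 3 were higher (60%, against 10.4% of all genes). Without placebo replicate 3 the same count, Elovl5, Kcnk5 and Slc7a5, rose (60%, against 6.4% of all genes). Elovl5, the elongase of polyunsaturated fatty acids, measured 8.37, 8.56 and 7.90 with placebo and 9.27, 9.36 and 9.44 with E2. The groups did not overlap. Its difference of 1.08 log2 was close to the threshold (limma adjusted p = 0.0564), and without placebo replicate 3 it rose by 0.89 (limma adjusted p = 0.00179).

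Kcnk5, a background potassium channel gene, measured 5.77, 6.15 and 7.16 with placebo and 7.15, 7.24 and 7.26 with E2. Placebo replicate 3 reached the level of the E2 tumours, so the groups overlapped by 1 tumour, and the difference was 0.85 log2 (limma adjusted p = 0.299). Without it Kcnk5 rose by 1.25 on the log2 scale (limma adjusted p = 0.00102), a 2.39-fold difference. Slc7a5, the LAT1 transporter of large neutral amino acids, measured 7.51, 7.56 and 7.11 with placebo and 7.91, 8.02 and 8.22 with E2. Its groups did not overlap, with a difference of 0.65 log2 (limma adjusted p = 0.117), and it rose by 0.51 without placebo replicate 3 (limma adjusted p = 0.025).

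Pdzk1, a scaffold of apical membranes and a breast oestrogen target, measured 4.241, 4.33 and 5.98 with placebo and 4.238, 4.21 and 4.16 with E2. Outside placebo replicate 3, Pdzk1 lay near the lower quartile of genes, below it on 4 arrays. Each E2 tumour was lower than each placebo tumour, but the difference of -0.65 log2 did not pass (limma adjusted p = 0.53) and was -0.081 without placebo replicate 3 (interval -0.29 to 0.13). Abca3, a phospholipid transporter gene, differed by 0.057 log2 (95% confidence interval -0.20 to 0.32), and by 0.14 without placebo replicate 3.

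Lcn2, Pdzk1, Ret, Myb and Fhl2 were, in that order, the targets that stood furthest above the mean of placebo replicates 1 and 2 in placebo replicate 3 among those where it held the highest value, by 3.35, 1.70, 1.45, 1.44 and 0.89 log2. Ctsd, Mybl1, Rab31, Hspb8 and Sgk3 stood furthest below, by differences of -1.64, -1.31, -1.12, -1.07 and -1.03 log2. The intestinal marker lists were highest in the same tumour, and their part in these values was not tested.

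Of the chaperones and the remaining gene, 0 of 3 passed in limma and 0 had an unadjusted p under 0.05. Fkbp4, an immunophilin that accompanies steroid receptors in the Hsp90 complex, lay between 7.86 and 8.12 in all 6 tumours, with a difference of 0.11 log2 (95% confidence interval -0.10 to 0.32, limma adjusted p = 0.559), and 0.13 without placebo replicate 3. Hspb8, a small heat shock protein gene, measured 6.40, 7.59 and 5.93 with placebo and 7.08, 7.24 and 7.65 with E2, and its difference of 0.68 log2 did not pass (limma adjusted p = 0.485), nor did that of 0.32 without placebo replicate 3 (limma adjusted p = 0.607). The high placebo tumour was replicate 2, and the groups overlapped through it. Tpd52l1, a coiled-coil protein gene, differed by -0.021 log2 (95% confidence interval -0.32 to 0.28), and by 0.080 without placebo replicate 3.

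**Figure D3:**
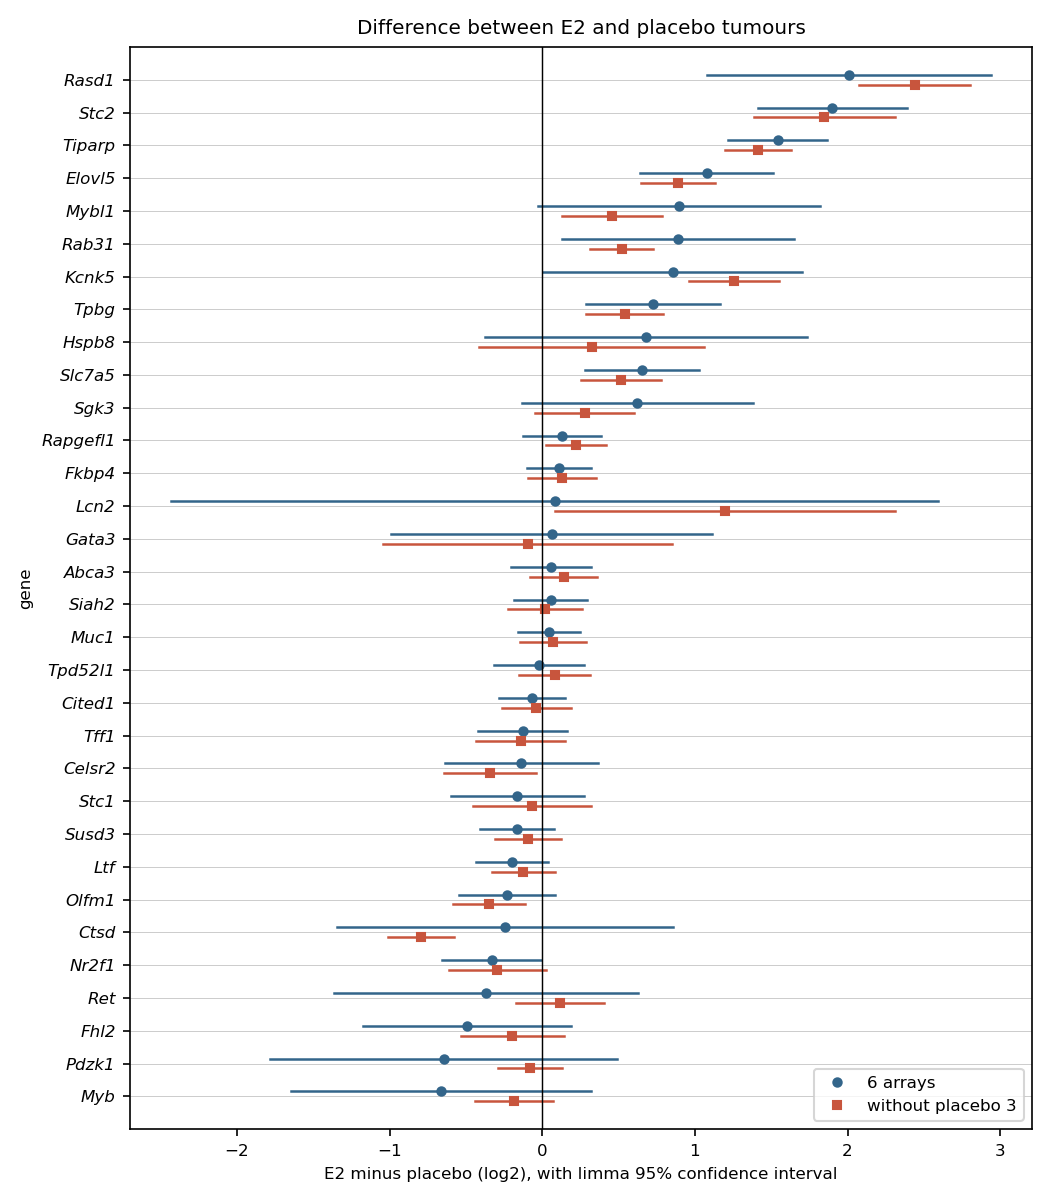
Difference between E2 and placebo tumours in log2 units (horizontal axis) for each measured target (rows), with limma 95% confidence intervals as lines, on all 6 arrays (blue circles) and without placebo replicate 3 (red squares). Rasd1, Stc2 and Tiparp lie furthest to the right in both, at 2.01, 1.9 and 1.54 log2 on 6 arrays, and the interval of Tff1 ends at 0.16.

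The intervals give the range of differences that the arrays allow for each target. A narrow interval also occurs near background, as for Ltf (-0.44 to 0.036 log2), whose 6 values were under the lower quartile. Tff1 and Muc1 were likewise not shown to be above background. On 6 arrays, 19 of the 32 targets had a 95% confidence interval that ended below a 2-fold rise, and for 14 of these it lay wholly within 2-fold in both directions. The second count was 23 without placebo replicate 3. As shares of the targets these are 59.4%, 43.8% and 71.9%, against 90.3%, 83.2% and 93.4% of all genes. On 6 arrays the intervals of Gata3, Sgk3, Hspb8, Mybl1 and Lcn2 held both 0 and a 2-fold rise. Their upper ends, in that order, were 1.11, 1.38, 1.73, 1.82 and 2.60 log2. The upper ends without placebo replicate 3 were 0.85, 0.60, 1.06, 0.79 and 2.31 log2.

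The rest of the pathway was taken from lists made beside the targets. Of 14 measured receptor and co-regulator genes, Pgr rose (7.14%, against 1.06% of all genes), 0 fell in limma and 13 did not pass (median change -0.059 log2). At an unadjusted p under 0.05, 3 were higher (21.4%, against 10.4% of all genes). At that threshold 1, the co-activator gene Ncoa1, was lower (7.14%, against 6.16% of all genes). Without placebo replicate 3, Pgr and Nrip1, a co-repressor that is itself an oestrogen target, rose (14.3%, against 6.4% of all genes). Of 22 further oestrogen targets, 3 rose (13.6%, against 1.06% of all genes) and 0 fell in limma (median change 0.056 log2). At an unadjusted p under 0.05, 6 were higher and 3, Cxcl12, Krt19 and Slc9a3r1, were lower. These are shares of 27.3% and 13.6%, against 10.4% and 6.16% of all genes. Those that rose were Greb1, Cyp26a1, which degrades retinoic acid (difference 1.23 log2, limma adjusted p = 0.0237), and Igf1, the growth factor (1.48 log2, limma adjusted p = 0.0475). Cyp26a1 and Igf1 rose by 1.18 and 1.31 on the log2 scale without placebo replicate 3 (limma adjusted p = 0.00232 and 0.00451). Without placebo replicate 3, 8 of the 22 rose (36.4%, against 6.4% of all genes) and 2 fell (9.09%, against 5.21% of all genes).

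The further targets of breast cancer cells also differed among themselves. Ccnd1, the cyclin D1 gene, was -0.85 log2 apart on 6 arrays and -0.18 without placebo replicate 3 (limma adjusted p = 0.507 and 0.652). Myc was 0.51 log2 units higher without passing (limma adjusted p = 0.379) and rose by 0.80 without placebo replicate 3 (limma adjusted p = 0.00224). Cxcl12, a chemokine gene that oestrogen raises in breast cancer cells, was 0.79 log2 units lower on 6 arrays (limma adjusted p = 0.109) and fell by 0.70 on the log2 scale without placebo replicate 3 (limma adjusted p = 0.0349). Agr2, a secretory-pathway gene of mucous epithelia, had a placebo SD of 2.90 log2, and its difference of -1.65 log2 did not pass (limma adjusted p = 0.573). That difference was 0.019 log2 without placebo replicate 3. These 4 genes were named after their values were seen.

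**Figure D4:**
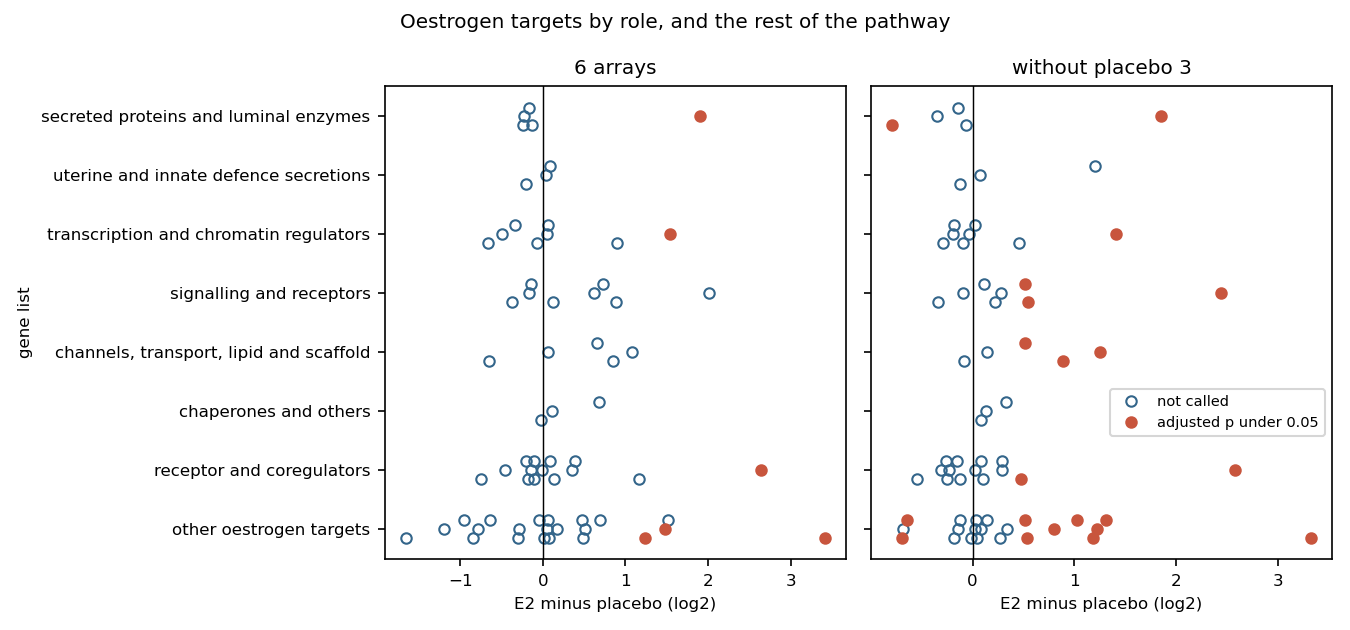
Difference between E2 and placebo tumours in log2 units (horizontal axis) for the measured targets by role (upper 6 rows) and for the receptor and co-regulator genes and other oestrogen targets (lower 2 rows). The left panel uses 6 arrays and the right panel leaves out placebo replicate 3, and filled points passed a limma adjusted p under 0.05. On the left 2 filled points stand in the upper 6 rows, and on the right 9 do.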

How the data were processed

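The deposited table holds log2 intensities. The submitters' processing notes name RMA, which forces all arrays to 1 distribution, so that strong signal from other tissue can displace the remaining genes of an array. The version of the RMA software was not given in the sources used here. Of 34760 probe sets, 21640 were annotated to 1 gene, and the one of highest mean stood for each of 19937 genes. Groups were taken from the sample titles, and 0 sample columns were unmapped. E2 was compared with placebo in limma 3.58.1 (R 4.3.3; lmFit and eBayes on group means, no covariates, two-sided), with p adjusted by Benjamini and Hochberg over all genes and a threshold of 0.05. The function was checked on data with known changes. All 33 targets were to be named, with Greb1, Pgr, Esr1, Esr2 and up to 3 called genes of each pathway list. Targets and lists were chosen with earlier results of these data known. The alternatives were leaving out each array, the replicate number as a block, a filter at the 25th percentile, median centring, repeated quantile normalization, averaging over the probe sets of a gene, a trended robust variance, array weights and an adjusted p under 0.10. The p-values rest on tumours that the series text calls biological replicates. Promoter windows come from RefSeq (GRCm38.p6), and the array values carry no build.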

Additional observations from a re-analysis of the deposited data

How the results depend on the processing

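Counts are of targets or genes called in limma. Leaving out 1 array at a time gave 0 to 8 targets higher (8 without placebo replicate 3, 2 without placebo replicate 2, Tiparp alone without placebo replicate 1, and 0 without any 1 of the E2 replicates, where 6 were higher at an unadjusted p under 0.05) and 0 to 1 lower (Ctsd, without placebo replicate 3). Without 1 array the limma adjusted p of Stc2 ran from 0.00128 to 0.12 and that of Tiparp from 0.000201 to 0.0806. Over all genes the counts ran from 31 to 1276 higher and from 0 to 1039 lower. The same 8 targets were higher with array weights, and 1026 and 760 genes were higher and lower. With the replicate block 0 targets were called (8 higher at an unadjusted p under 0.05), and 10 genes were higher and 0 lower (886 at an unadjusted p under 0.05). The labels give same-numbered tumours only a shared number. Their deviations from the group means correlated at r = -0.0287, -0.182 and -0.13 across genes. Placebo replicate 3 enters every placebo mean, so these values cannot tell whether same-numbered tumours shared a batch. At an adjusted p under 0.10, Rasd1 and Elovl5 joined for 4 targets, 543 genes were higher and 193 lower. Median centring gave 342 genes higher and added Elovl5 to the targets. The other settings kept Stc2 and Tiparp as the targets called.

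Log2 changes of Stc2 and Tiparp stayed between 1.76 and 2.05 and between 1.41 and 1.64 in all 13 refits. The replicate block, the filter, the average over probe sets and the trended robust variance could not move these changes. Some uncalled differences changed sign. Without 1 array at a time they ran from -0.79 to 0.050 (Ctsd), -0.59 to 1.2 (Lcn2), -0.00027 to 0.079 (Muc1), -0.27 to 0.55 (Gata3), -0.67 to 0.12 (Ret), -0.34 to 0.0031 (Celsr2), -0.12 to 0.080 (Tpd52l1) and -0.059 to 0.021 (Esr2). With array weights Gata3 was -0.0014, Ret 0.055, Tpd52l1 0.066 and Esr2 0.015. With repeated quantile normalization Siah2 was -0.0086, Abca3 -0.025, Fkbp4 -0.030, Tpd52l1 0.073 and Esr2 0.079. With median centring Tpd52l1 was 0.025 and Esr2 0.032. The cause was not tested.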
